A study of Mus musculus with 3 samples.

Results

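The small leucine-rich proteoglycans (SLRPs) are secreted matrix proteins built around a chain of leucine-rich repeats, most of which carry 1 or more sulfated sugar chains. They were taken as 8 genes, chosen by symbol: Dcn (decorin), Bgn (biglycan), Aspn (asporin), Prelp, Fmod (fibromodulin), Lum (lumican), Omd (osteomodulin) and Ogn (osteoglycin, or mimecan). All 8 of 8 were found among the 20162 genes of a read-count table, and all 8 passed the filter on low counts that left 14478 genes for testing. The cells were C2C12, mouse myoblasts of an established line whose cells fuse to multinucleate myotubes once serum is withdrawn. Both Tead4 shRNA populations (ShA and ShB) carried a lentiviral short hairpin RNA against Tead4, with a different hairpin in each, and the control population (ShSC) carried a control hairpin. All 3 infected populations were kept in puromycin and differentiated for 7 days in low horse serum, and polyadenylated RNA of each gave 1 library. Each was an infected population and no repeat culture of any hairpin is described. The spread behind each p-value is therefore that between ShA and ShB, 2 different hairpins, shared across all genes tested. It may be partly technical.

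SLRPs sit on collagen fibrils, where they influence fibril thickness and spacing, and several of them bind transforming growth factor beta. They fall into classes by sequence: class I holds decorin, biglycan and asporin, class II holds Prelp, fibromodulin, lumican and osteomodulin, and class III holds osteoglycin. Decorin and biglycan carry chondroitin or dermatan sulfate chains, most class II members can carry keratan sulfate, and asporin lacks a sugar chain of this kind. In muscle they belong to the connective tissue matrix that surrounds the fibres, and decorin can bind myostatin. TEAD4 is a DNA-binding factor that recognises the MCAT element and works with the coactivators YAP and TAZ.

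Library totals were 19918954 reads in ShA, 15594305 in ShB and 16412139 in ShSC. Tead4 itself had 397 reads in ShA and 170 in ShB, against 1256 in ShSC, or 19.7, 10.8 and 78.2 CPM (reads scaled to library size with TMM factors). It was lower in both shRNA libraries, with a log2 change of -2.35 (SE 0.27, edgeR quasi-likelihood test, Benjamini-Hochberg adjusted p = 2.82e-06). At adjusted p under 0.05 the test called 9.82% of the 14478 genes, 5.34% higher and 4.48% lower. All 9 proliferation markers tested were called higher, and their summed level was 306 CPM in ShA and 318 in ShB, against 107 in ShSC. Of 12 muscle markers 6 were called lower and 0 higher, and the muscle sum was 15516 CPM in ShA and 19423 in ShB, against 27260 in ShSC. The call of Tnni2 was lost under RLE, upper-quartile and total-count scaling. Myod1 went the other way, with 177 CPM in ShA and 185 in ShB, against 111 in ShSC. It did not pass (log2 difference 0.71, adjusted p = 0.057), but did when low-count genes were kept in the test (adjusted p = 0.0369). Myh8 was at -0.06 and did not pass. Log2 changes were 1.91 for the topoisomerase Top2a, 0.84 for the ribonucleotide reductase subunit Rrm2, -1.63 for the embryonic myosin Myh3 and -1.08 for the myosin light chain Myl1, whose call was lost under RLE scaling and DESeq2. Myh3 had 1442 CPM in ShA and 1297 in ShB, against 4228 in ShSC, so a defining myotube gene was present in every library. Of 6 tendon and fibroblast markers tested 1 was called higher, the tendon factor Scx (log2 change 1.05), with a sum of 393 CPM in ShA and 404 in ShB, against 273 in ShSC. The tendon gene Tnmd had 1 read in ShA, 1 in ShB and 0 in ShSC. Neither cartilage and bone marker tested passed, Sox9 being at -0.09 (sums of 82.3, 69.0 and 76.0 CPM in ShA, ShB and ShSC) and Col2a1 was at 0 reads in every library. Of 3 adipocyte markers 1, the fatty acid transporter Cd36, was called lower (adjusted p = 0.0096), with sums of 105 CPM in ShA and 125 in ShB, against 190 in ShSC. The proliferation, muscle, tendon and fibroblast, and adipocyte sums lay to 1 side of the control in both shRNA libraries, and the cartilage and bone sum lay on either side of it. Their part in the results was not tested. In bulk RNA, fewer cells of a type and less RNA per cell cannot be told apart.

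Of the 8 SLRP genes, Prelp, Ogn and Omd rose with the Tead4 hairpins, Dcn fell, and Bgn, Aspn, Lum and Fmod did not pass the test. The calls, 3 higher and 1 lower of 8, stand beside 5.34% higher and 4.48% lower of all genes tested. The median log2 change was 0.63 over the 8 genes and 0.02 over all genes tested. Of the class I genes 1 fell and 0 rose, of the class II genes 2 rose and 0 fell, and the only class III gene rose. The spread between ShA and ShB has 1 residual degree of freedom, the lone control library being assumed to vary like the shRNA libraries. For each gene it was drawn toward a trend over all genes, with 20.89 prior degrees of freedom. The p-value of a gene thus rests mostly on that trend and little on its own difference between ShA and ShB. When the dispersion was instead taken from the 3 libraries pooled as 1 group, a likelihood-ratio test called 0 of 14478 genes, with 540 at unadjusted p under 0.05. That dispersion counts the difference between shRNA and control libraries as spread, so this test cannot decide whether a gene changed.

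**Figure D1:**
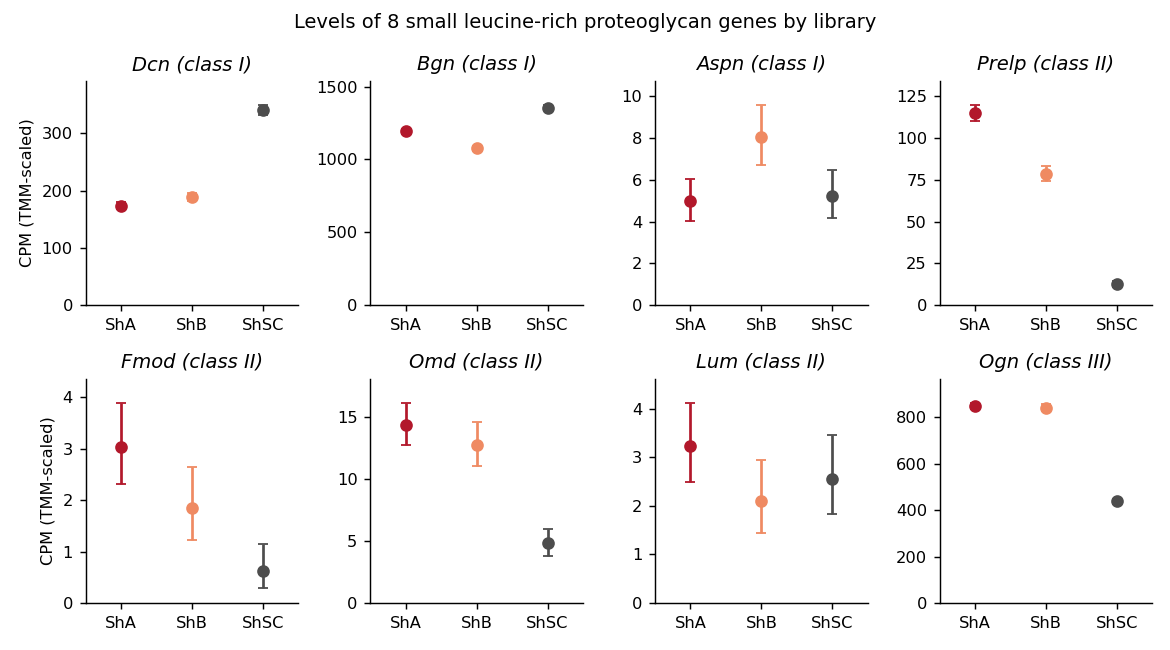
TMM-scaled CPM of each of the 8 SLRP genes in the ShA, ShB and ShSC libraries, 1 panel per gene with its own linear axis. Each point is 1 library and whiskers are 95% exact Poisson intervals for counting error; Prelp stands at 115 and 78.4 CPM in ShA and ShB against 12.6 in ShSC, and Dcn at 174 and 189 against 340.

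Among class I genes, decorin (Dcn, ENSMUSG00000019929), which binds collagen fibrils and transforming growth factor beta, had 3498 reads in ShA and 2979 in ShB, against 5460 in ShSC. These were 174 and 189 CPM, against 340 CPM. Both shRNA libraries lay below the control and close to each other. Decorin fell by 0.91 on the log2 scale, to 0.534 times the control level (SE 0.23, adjusted p = 0.0113). Measured library by library, the log2 ratio to ShSC was -0.97 in ShA (95% exact interval -1.03 to -0.91, counting error only) and -0.85 in ShB (-0.91 to -0.78).

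Biglycan (Bgn, ENSMUSG00000031375), the closest relative of decorin and, once freed from the matrix, a ligand of Toll-like receptors, was the most abundant SLRP in read count. It had 23993 reads in ShA and 16969 in ShB, against 21761 in ShSC, equal to 1193, 1077 and 1355 CPM. Its log2 change of -0.26 (SE 0.24, adjusted p = 0.617) did not pass, although counting error alone was small in both libraries (log2 ratios of -0.18 and -0.33). Asporin (Aspn, ENSMUSG00000021388), which binds collagen and transforming growth factor beta and carries no sulfated sugar chain, had 100 reads in ShA and 127 in ShB, against 84 in ShSC. The hairpins did not give the same picture for asporin. The ShA ratio of -0.07 had an interval spanning no change (-0.51 to 0.36), and the ShB ratio of 0.62 lay above it (0.21 to 1.04); the log2 change over both was 0.31 (SE 0.39, adjusted p = 0.732).

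The class II gene Prelp (ENSMUSG00000041577), whose product has a basic end that binds heparan sulfate and can tether basement membrane to collagen, changed most of the 8. It had 2309 reads in ShA and 1235 in ShB, against 202 in ShSC, or 115 and 78.4 CPM against 12.6. Both shRNA libraries stood far above the control, ShA above ShB. The log2 change was 2.94 (SE 0.29, adjusted p = 3.05e-07), a fold of 7.68, and ranked 136th from the top of the 14478 genes tested. With the hairpins taken singly it was 3.19 in ShA (2.98 to 3.40) and 2.64 in ShB (2.42 to 2.86). An annotated antisense transcript, Gm15851, shares 350 of the 3615 exon bases of Prelp. The library kit does not mark strand, so reads of the pair within those shared bases cannot be told apart.

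Osteomodulin (Omd, ENSMUSG00000048368), a keratan sulfate proteoglycan first known from bone, had 289 reads in ShA and 200 in ShB, against 77 in ShSC. At 14.4 and 12.7 CPM against 4.80, both shRNA libraries were above the control. The log2 change was 1.50 (SE 0.33, adjusted p = 0.0045), a fold of 2.82. Fibromodulin (Fmod, ENSMUSG00000041559), which binds collagen and directs its cross-linking, had 61 reads in ShA and 29 in ShB, against 10 in ShSC. Its log2 difference of 1.96 (SE 0.71, adjusted p = 0.0872) missed the threshold, and it passed when low-count genes were kept in the test (adjusted p = 0.0282). It passed in no other fit run, with adjusted p = 0.1535 under limma-voom and 0.3443 under DESeq2. Lumican (Lum, ENSMUSG00000036446), which keeps corneal fibrils evenly spaced, had 65 reads in ShA and 33 in ShB, against 41 in ShSC, with a log2 difference of 0.07 (SE 0.52, adjusted p = 0.966). At this depth the lumican intervals ran from -0.25 to 0.94 in ShA and from -0.99 to 0.41 in ShB. Both span no change, so counting error alone allows a change of either sign within those bounds.

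The class III gene osteoglycin (Ogn, ENSMUSG00000021390), a matrix protein also called mimecan that takes part in collagen fibril assembly, had 17109 reads in ShA and 13261 in ShB, against 7029 in ShSC. These were 850.5 and 842 CPM, against 438 CPM. Both hairpins gave almost the same level. The log2 change was 0.95 (SE 0.25, adjusted p = 0.0172), a fold of 1.93, and the 95% interval of the ShA over ShB log2 ratio was -0.02 to 0.05.

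**Figure D2:**
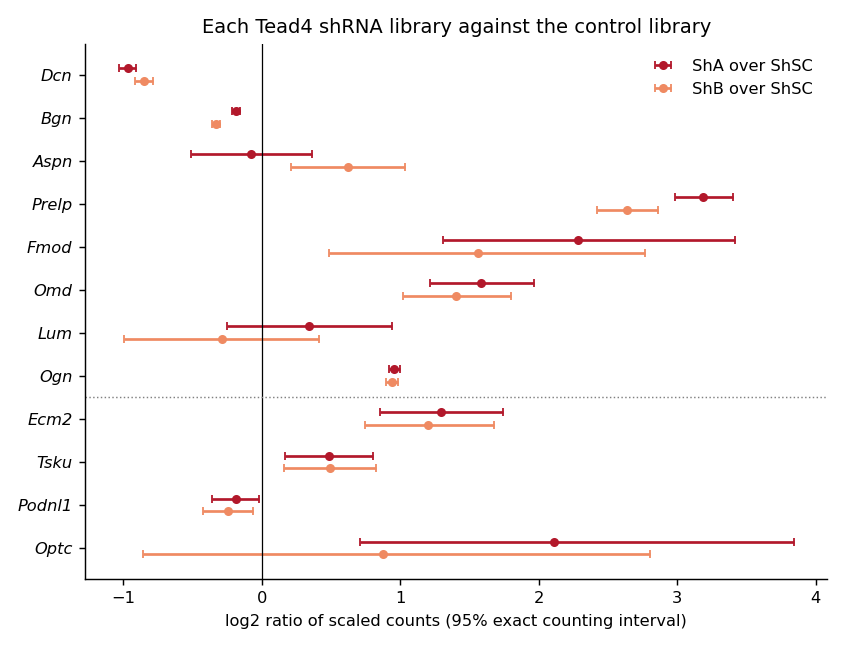
Log2 ratios of TMM-scaled counts of ShA and of ShB, each over the shared control ShSC, for the 8 SLRP genes and 4 further leucine-rich matrix genes, with 95% exact intervals for counting error. Points for Prelp, Fmod and Omd lie at least 2-fold above the control in both libraries, and those of Aspn and Lum fall on opposite sides of 0.

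At least 2-fold above the control with an interval above no change were 3 of 8 SLRP genes in ShA and the same 3 in ShB, namely Prelp, Omd and Fmod. The same criterion took 8.7% of all genes tested in ShA and 6.41% in ShB. No SLRP gene was at least 2-fold lower in either library, where 5.88% and 4.74% of all genes tested were. In both libraries at once, 4.63% of all genes tested were at least 2-fold higher and 3.1% at least 2-fold lower, against 3 and 0 of the 8 SLRP genes. Both ratios share the control library. Set directly against each other, ShA and ShB differed beyond counting error for 5 of the 8 genes. Prelp was higher in ShA than in ShB by 0.55 on the log2 scale (0.45 to 0.65), and Aspn differed by -0.70 (-1.09 to -0.31). For Ogn and Omd the interval of that difference included 0. These are single libraries, with no replicate check.

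Summed over the 8 genes, SLRP reads were 2358 CPM in ShA and 2211 in ShB, against 2159 in ShSC, while their make-up differed. The sum was 0.13 higher on the log2 scale in ShA (95% interval 0.11 to 0.15) and 0.03 higher in ShB (0.01 to 0.06), intervals that cover counting error only. Class I genes took 58.2% of SLRP reads in ShA and 57.6% in ShB, against 78.8% in ShSC. A share also falls when another class rises. The class I sum itself was 1372 CPM in ShA and 1274 in ShB, against 1700.5 in ShSC. Its log2 ratios to ShSC were -0.31 in ShA and -0.42 in ShB. Osteoglycin took 36.1% in ShA and 38.1% in ShB, against 20.3% in ShSC. Class II genes took 5.74% and 4.30%, against 0.952%, most of them Prelp reads. The decorin share was 7.38% in ShA and 8.55% in ShB, against 15.8% in ShSC. No test was run on these shares.

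**Figure D3:**
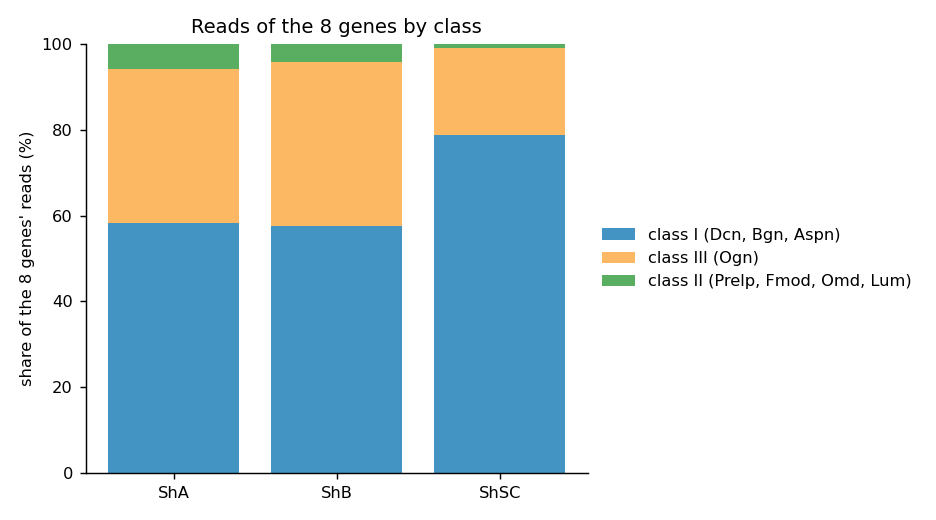
Percent of the reads of the 8 SLRP genes that belong to class I (Dcn, Bgn, Aspn), class II (Prelp, Fmod, Lum, Omd) and class III (Ogn), as 1 stacked bar per library in the order ShA, ShB, ShSC. The class I part is 58.2% and 57.6% in the shRNA libraries against 78.8% in the control.

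Ratios of reads between 2 genes within a library do not depend on library scaling. Osteoglycin had 4.89 reads per decorin read in ShA (95% exact interval 4.72 to 5.07) and 4.45 in ShB (4.28 to 4.63), against 1.29 in ShSC (1.24 to 1.33). Biglycan had 6.86 reads per decorin read in ShA and 5.70 in ShB, against 3.99 in ShSC. The intervals of the osteoglycin to decorin ratio did not overlap between either shRNA library and the control, but cover counting error only. This ratio sets a gene called higher over a gene called lower in these data, so it restates those calls. Osteomodulin had 2.89 reads per asporin read in ShA (2.29 to 3.67) and 1.57 in ShB (1.25 to 1.98), against 0.917 in ShSC (0.664 to 1.26), and the ShB and ShSC intervals overlap.

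Levels per kilobase of the principal transcript put the genes in order. Biglycan led at 493 CPM per kilobase in ShA and 445 in ShB, against 560 in ShSC. Osteoglycin followed at 331 and 328, against 171, and decorin stood at 98.9 and 108, against 193. On these lengths decorin ranked above osteoglycin in the control and below it in both shRNA libraries. Osteomodulin (6.39 and 5.64, against 2.13 CPM per kilobase) and asporin (2.13 and 3.46, against 2.25) changed places too, although in the control those neighbours are close. Lumican and fibromodulin came last in every library. With lengths taken as the union of all exons, osteoglycin ranked above decorin in every library (in ShSC, 170.6 against 58.2 CPM per kilobase), so that exchange of places was lost. Osteoglycin then ranked above biglycan in ShA and ShB and below it in ShSC, so the order of these abundant genes depends on the isoform assumed.

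The genes were also read in their order along the chromosomes, with the nearest protein-coding genes of the read-count table on each side. Genes outside that table, Kera and Epyc among them, were not placed, so neighbours here need not be adjacent on the chromosome. Ecm2, Aspn, Omd and Ogn lie beside each other on chromosome 13, within the span of Cenpp on the other strand. Of these 4 genes 3 rose, Ecm2, Omd and Ogn, beside 5.34% of all genes tested; the row was chosen with the values known, so nothing is read from its count. Ecm2, a matrix protein related to decorin, had 178 reads in ShA and 131 in ShB, against 58 in ShSC, with a log2 change of 1.25 (SE 0.37, adjusted p = 0.0351); the call was lost under RLE scaling, DESeq2 and limma-voom, with adjusted p up to 0.188. Aspn, between Ecm2 and Omd, was the member of the row that did not pass. Cenpp, a centromere gene, had 84 reads in ShA and 31 in ShB, against 38 in ShSC, and was not called. It shares 7 exon bases with Aspn and 0 with the others. The next genes along, Nol8 and Iars, fell, by 0.93 (adjusted p = 0.0074) and 1.66 (adjusted p = 2.1e-05) on the log2 scale.

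On chromosome 10, Dcn and Lum are neighbours among the genes placed, with Btg1 the next placed on one side and Atp2b1 on the other. Atp2b1, a plasma membrane calcium pump, fell by 1.08 on the log2 scale (SE 0.23, adjusted p = 0.0029), and Btg1, an antiproliferative gene, by 0.71 (adjusted p = 0.0495), a call lost in 5 of 9 alternative fits. On chromosome 1, Optc, Prelp and Fmod stand in a row beside Atp2b4, another calcium pump, which rose by 1.01 on the log2 scale (SE 0.26, adjusted p = 0.0148). Optc, which codes for the eye proteoglycan opticin, had 27 reads in ShA and 9 in ShB, against 5 in ShSC, and was not called. Beyond Fmod, Btg2 had a log2 difference of -0.45 and did not pass, and Chit1 had too few reads to test. On chromosome 10, Eea1 (-0.59) and Dusp6 (0.54) did not pass. Of the genes beside Bgn on the X chromosome, Haus7 (0.07) and Dusp9 (-0.45) did not pass, and Trex2 and Atp2b3 had too few reads to test. These neighbours were named after their values were seen.

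**Figure D4:**
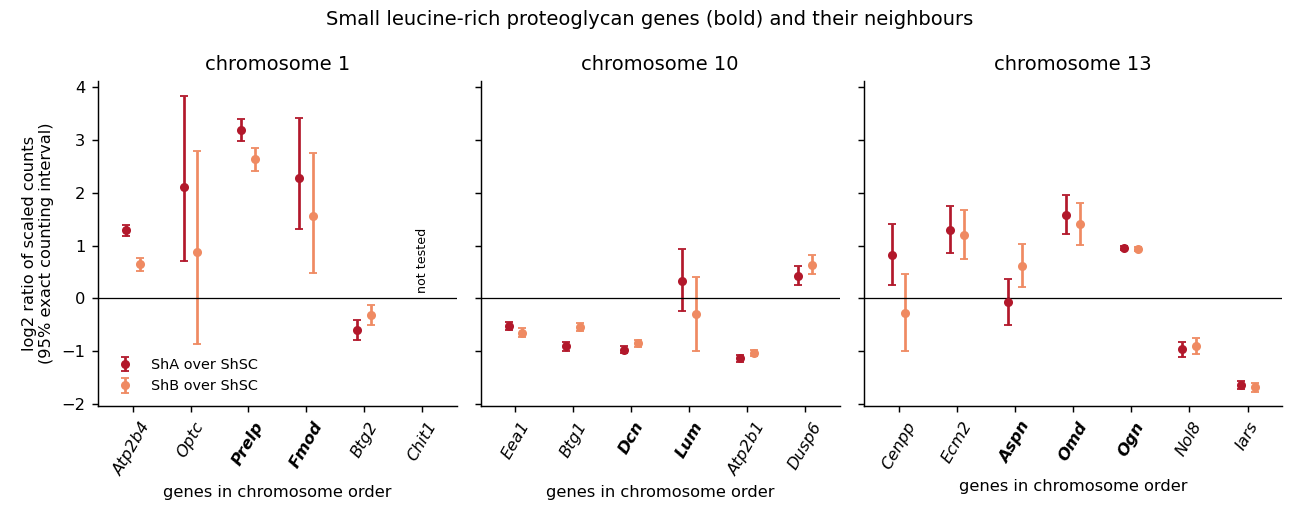
Log2 ratios of ShA and ShB over ShSC, with 95% exact counting intervals, for genes along chromosomes 1, 10 and 13, the SLRP genes in bold. Only protein-coding genes of the read-count table are placed in order. On chromosome 13 Ecm2, Omd and Ogn are above 0 in both libraries, Aspn lies between them near 0 in ShA, and Nol8 and Iars are below 0.

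Promoter sequences are shown for the chromosome 13 neighbours Ogn, Omd and Aspn, which differ in their calls, and for Prelp, which changed most. Windows of 250 bases before the RefSeq start of transcription (RefSeq, build GRCm38.p6) were found for 6 of the 8 genes, all but Dcn and Lum. They were searched on both strands for the MCAT element (CATTCC or its reverse complement GGAATG), for the E-box CANNTG bound by MyoD family factors, and for the AP-1 element TGANTCA. The windows are Ogn chr13:49607765-49608014 (+), Omd chr13:49582212-49582461 (+), Aspn chr13:49544193-49544442 (+) and Prelp chr1:133921402-133921651 (-), each printed 5′ to 3′ on the gene's strand with MCAT matches in capitals.
Ogn: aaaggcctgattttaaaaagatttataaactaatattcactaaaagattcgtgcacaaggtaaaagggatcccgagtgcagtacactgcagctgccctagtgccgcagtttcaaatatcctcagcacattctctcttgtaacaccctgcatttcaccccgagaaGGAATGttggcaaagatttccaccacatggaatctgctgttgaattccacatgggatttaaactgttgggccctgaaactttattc
Omd: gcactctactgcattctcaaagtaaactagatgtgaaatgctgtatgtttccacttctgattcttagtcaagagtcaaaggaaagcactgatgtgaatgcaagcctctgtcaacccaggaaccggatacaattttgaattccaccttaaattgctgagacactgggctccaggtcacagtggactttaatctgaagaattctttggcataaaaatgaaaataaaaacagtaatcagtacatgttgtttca
Aspn: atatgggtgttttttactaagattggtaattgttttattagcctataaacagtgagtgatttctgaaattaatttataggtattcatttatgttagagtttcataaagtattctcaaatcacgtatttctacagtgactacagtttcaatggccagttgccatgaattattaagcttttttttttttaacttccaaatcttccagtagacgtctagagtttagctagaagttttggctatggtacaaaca
Prelp: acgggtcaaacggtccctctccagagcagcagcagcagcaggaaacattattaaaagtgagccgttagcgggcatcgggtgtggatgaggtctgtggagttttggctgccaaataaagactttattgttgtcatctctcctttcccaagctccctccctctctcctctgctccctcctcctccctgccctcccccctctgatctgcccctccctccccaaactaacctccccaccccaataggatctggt
Only Ogn held an MCAT match among the 6 members' windows, at 86 bases before the start; 12.6% of 32851 promoter windows of the same length hold one. E-boxes were found in Ogn (3 matches), Aspn (1), Bgn (1) and Fmod (1), and 66.2% of all windows hold one. No AP-1 match was found in the 6 windows, where 6.75% of all windows hold one. No motif overlapped another in Ogn. A match of letters is a description and says nothing about binding in these cells.

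4 further leucine-rich matrix genes were abundant enough to test, from 10 listed, of which 7 were in the table. Apart from Ecm2, 0 of them passed. Podnl1 had 601 reads in ShA and 453 in ShB, against 546 in ShSC, with a log2 difference of -0.21. Tsku, a secreted inhibitor of growth factor signalling, had 230 reads in ShA and 181 in ShB, against 131 in ShSC, with a difference of 0.49. Chadl was at 0 reads in all libraries. Kera, Epyc and Chad were not analysed here.

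The enzymes that build the sulfated chains of decorin and biglycan were examined as a list of chondroitin and dermatan sulfate genes. Of 14 tested 7 rose and 0 fell, with a median log2 change of 0.61 (0.76 in ShA and 0.35 in ShB), against 0.02 over all genes tested and 5.34% called higher. The sulfotransferases Chst3 (268 and 162 reads, against 54), Chst7 (140 and 113, against 26), Chst12 (758 and 321, against 161) and Chst15 (1163 and 924, against 420), read in ShA and ShB against ShSC, each rose. These 4 enzymes add sulfate to the chain at set positions of the sugar units. Chst7 changed most, with a log2 change of 2.12 (SE 0.44, adjusted p = 0.0027), and Chst15 rose by 1.15 (SE 0.24, adjusted p = 0.0025). Csgalnact1 (0.94), which starts the chain, Chpf2 (0.81), a chain polymerisation factor, and Dsel (0.81), an epimerase that makes dermatan, also rose. The count was 4 under DESeq2, where Csgalnact1, Chpf2 and Dsel lost their calls, and 5 under RLE scaling, where Csgalnact1 and Dsel did. Csgalnact1 lost its call in 5 of 9 alternative fits. Dse and Chst14, the other dermatan enzymes, did not pass, at 0.10 and 0.42. The sulfotransferases Chst11 and Ust did not pass either, at 0.35 and 0.30. Chst11 had the highest level of the sulfotransferases named, at 109.7 CPM in ShA and 84.0 in ShB, against 75.9 in ShSC. Of 7 genes for the shared linkage region 0 were called, with Fam20b, the kinase that regulates its assembly, at 143, 142 and 139.9 CPM in ShA, ShB and ShSC. Of 10 genes for keratan chains and sulfate supply 0 were called; B4galt1, a galactosyltransferase, had a log2 difference of 0.57 (adjusted p = 0.157).

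**Figure D5:**
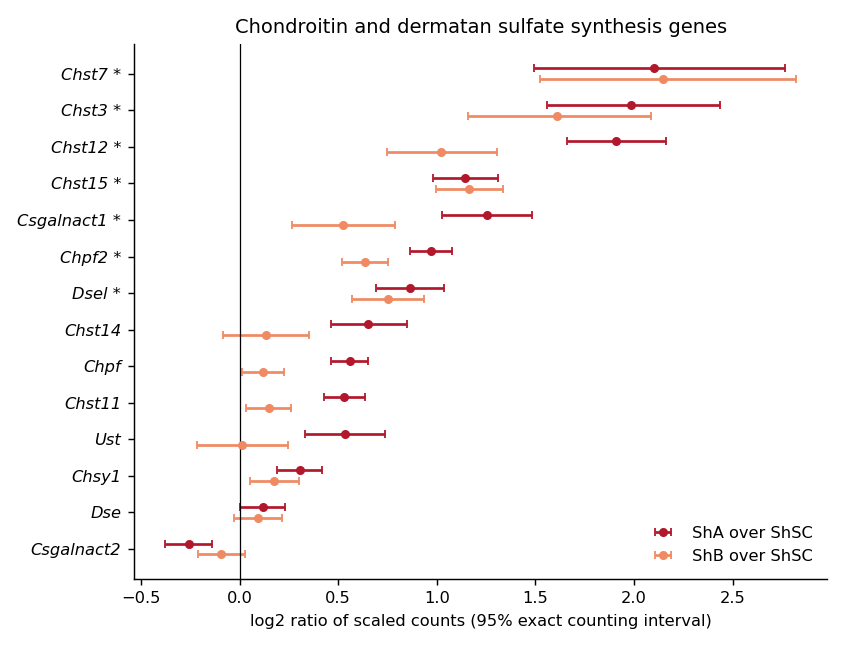
Log2 ratios of ShA and ShB over ShSC for the 14 chondroitin and dermatan sulfate synthesis genes tested, with 95% exact intervals for counting error and a star on each gene called at adjusted p under 0.05. Chst7, Chst3, Chst12 and Chst15 lie at or above 1 in both libraries, and Csgalnact2 is the only one with a fitted change below 0.

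The collagens that SLRPs bind were examined next. Of 11 fibrillar collagen and partner genes tested, 0 passed in either direction, with a median log2 difference of 0.84 in ShA and 0.13 in ShB. With low-count genes kept in the test 2 of them passed, Col11a1 (adjusted p = 0.045) and Col12a1 (adjusted p = 0.0365). In 10 of the 11 the ShA level was above ShB beyond counting error. Col3a1, the most abundant, had 2838 CPM in ShA and 1646 in ShB, against 1582 in ShSC (log2 difference 0.50, SE 0.29, adjusted p = 0.336). For Dcn the ShA over ShB log2 ratio was -0.12, and for Ogn it was 0.02. Of 15 genes for collagen processing and cross-linking 2 rose and 2 fell, beside 5.34% higher and 4.48% lower of all genes tested. The median log2 change of the 15 was 0.41 (0.63 in ShA and 0.13 in ShB). Lox, the cross-linking oxidase, rose by 1.01 (SE 0.26, adjusted p = 0.0132), and Pcolce, an enhancer of procollagen cleavage, by 0.94 (SE 0.26, adjusted p = 0.0218). Serpinh1, the collagen chaperone of the reticulum, fell by 0.76 (SE 0.24, adjusted p = 0.0444), a call lost in 5 of 9 alternative fits, and Adamts14, a procollagen protease, by 0.94.

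Among 22 SLRP ligands and receptors tested, 5 rose and 1 fell, beside 5.34% higher and 4.48% lower of all genes tested, and the median log2 change was 0.46. The 1 lower call is near that background share. Tgfb2 (131 and 145 CPM, against 64.1) and Tgfb3 (301 and 275, against 155), growth factors that decorin and biglycan bind, rose by 1.11 and 0.89 on the log2 scale (adjusted p = 0.0033 and 0.0202). Bmp4, Ctgf and P2rx4 rose too, by 1.39, 1.14 and 0.78; P2rx4 lost its call under RLE scaling and DESeq2. Tlr2, a receptor of soluble biglycan, fell to 11.1 CPM in ShA and 11.2 in ShB, against 38.4 in ShSC, a log2 change of -1.78 (SE 0.23, adjusted p = 2.08e-05). Tlr4, the other Toll-like receptor that biglycan binds, had 76.1 and 90.2 CPM, against 92.9, and did not pass. Of 6 proteases that cut SLRPs 3 rose: Mmp14 by 1.46, Mmp2 by 1.07 and Adamts4 by 0.93, each higher in ShA than in ShB. The other 3 did not pass and had values below 0: Mmp13 at -2.35 on few reads (3 in ShA and 5 in ShB, against 19 in ShSC), Adamts5 at -0.57 and Adamts1 at -0.56. The median over the 6 was 0.19 (0.38 in ShA and -0.04 in ShB), and 5.34% of all genes tested were called higher.

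Genes whose pair of log2 ratios lay closest to each called SLRP gene were listed by distance in the plane of the ShA and ShB ratios. Nearest to Prelp were Plk1 and Adh1, at distances of 0.19 and 0.206, then Kif2c at 0.452, and few genes lay near. Nearest to Dcn were Spcs2, Eif5 and Pold2, and nearest to Ogn were Igfbp4, Mppe1 and Rab31. Nearest to Omd were Nfatc4, Fam131b and Kif4. Within the same short distance of each lay 2 genes for Prelp, 206 for Dcn, 184 for Ogn and 51 for Omd. The genes named for Dcn, Ogn and Omd are thus a few of many that lay close. The likeness rests on 2 ratios that share a control.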

How the data were processed

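Per the labels' protocols, polyadenylated RNA was made into unstranded libraries and read as single-end 72-base reads. The authors deposited a table with a raw read count and a normalized value per gene and library. The normalized value is a score: each deposited value equalled the raw count times 1 factor per library (0.8013 for ShA, 1.018 for ShB, 1.003 for ShSC), rounded, and it was not tested. Build mm9 and the tools DESeq, Cufflinks 0.8.2 and TopHat 1.0.12 are listed, without their roles, per the submitters' processing notes; the counting program and annotation are not given in the sources used here. Of 20162 identifiers, 18701 matched GENCODE M21, a later list used for lengths and overlaps only.

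Raw counts were fitted in edgeR 4.0.16 (R 4.3.3; filterByExpr, TMM factors of 1.01, 1.01 and 0.979 for ShA, ShB and ShSC, quasi-likelihood F test) as 2 Tead4 shRNA libraries against 1 control, with p adjusted over 14478 genes. The biological coefficient of variation was 16.43%. Standard errors were obtained from the log2 change and the F statistic. Intervals are 95% Clopper-Pearson on pairs of scaled libraries, or Poisson for CPM, and cover counting error only. Alternatives were DESeq2 1.42.0, limma-voom 3.58.1, other scalings, filters and dispersions. Members and lists were chosen with earlier results of these data known. From each list the 2 called genes of highest mean CPM were named, or the 1 highest where none was called; other list genes and neighbours were named after their values were seen. For each called SLRP gene, the 3 nearest genes with a mean of at least 5 CPM were named.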

Additional observations from a re-analysis of the deposited data

How the results depend on the processing

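With DESeq2, 464 genes were called higher and 374 lower, against 773 and 649. With a likelihood-ratio test and dispersion over the 3 libraries as 1 group, 0 and 0 genes were called, and 0 and 0 SLRP genes. The log2 changes of Prelp (2.94), Dcn (-0.91), Ogn (0.95), Omd (1.50) and Tead4 (-2.36) stood but had adjusted p = 0.885 in that test. Its dispersion takes in the difference between shRNA and control libraries, so the test cannot decide whether these genes changed. With the same dispersion and the quasi-likelihood test, 753 and 616 genes and 3 and 1 SLRP genes were called. With no low-count filter Fmod passed, at 1.97, and it passed in no other fit. Leaving out 1 shRNA library gave values without a test, from 2.64 to 3.19 for Prelp and from -2.86 to -1.99 for Tead4. Across the other alternatives run, Prelp, Dcn, Ogn and Omd kept their calls, with adjusted p of at most 3.44e-05, 0.0222, 0.0303 and 0.0237. Scaling moved the median of all genes by at most 0.05 on the log2 scale. No paired analysis was possible because the single control library shares a number with at most 1 shRNA library. Low reads limit Fmod, Lum and Aspn.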

Other observations

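Of 5 large matrix proteoglycan and hyaluronan genes tested, 1 rose and 1 fell, beside 5.34% higher and 4.48% lower of all genes tested. Has2, a hyaluronan synthase, had 50.6 CPM in ShA and 50.4 in ShB, against 30.3 in ShSC, a log2 change of 0.74 (edgeR quasi-likelihood adjusted p = 0.0486). Has1, another hyaluronan synthase, had 18 reads in ShA and 25 in ShB, against 70 in ShSC, a log2 change of -1.83 (adjusted p = 0.0338). Both calls were lost under RLE scaling and DESeq2, that of Has2 also under limma-voom and that of Has1 also under upper-quartile scaling. Vcan, the large chondroitin sulfate proteoglycan versican, had 184 CPM in ShA and 101 in ShB, against 146 in ShSC, and did not pass.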
